A study of Mus musculus with 8 samples.

Results

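The 7 sirtuin genes, Sirt1 to Sirt7, and Nampt were followed through RNA-seq of C3H10T1/2 cells, a mouse embryonic mesenchymal line that can be driven towards bone-forming cells. These 8 genes were taken by symbol from the 18605 genes measured, and their 38 annotated transcripts from 57714. Cells of the C3H strain carried either a non-target control (NC) or an shRNA against Nap1l2 delivered by lentivirus (KD-Nap1l2), and were collected before induction or after 7 days in osteogenic medium with dexamethasone, ascorbic acid and β-glycerol phosphate (NC-7d and KD-Nap1l2-7d). Each of the 4 groups held 2 libraries, and nothing in the labels says whether these came from separate cultures, so the p-values measure only the spread between these libraries. Whether the knockdown cells were 1 clone or a pool is not given in the sources used here. No group was kept for 7 days without osteogenic medium, so the medium and the days in culture cannot be told apart. Changes "with induction" below stand for both together.

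Sirtuins are enzymes that remove acetyl and related acyl groups from proteins and consume NAD+ in doing so, which releases nicotinamide. Nampt, the rate-limiting enzyme of NAD+ salvage, turns that nicotinamide into nicotinamide mononucleotide, the precursor of new NAD+. Sirt1, Sirt6 and Sirt7 act mainly in the nucleus, Sirt2 mainly in the cytoplasm, and Sirt3, Sirt4 and Sirt5 in mitochondria. The study that produced these libraries asked how the histone chaperone Nap1l2 acts with Sirt1 on histone acetylation at bone genes, so the question here is whether the transcripts of Sirt1, its relatives and its NAD+ supply differed with the knockdown or with induction.

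Library totals ran from 17420284 to 19427359 estimated counts. The Nap1l2 gene itself could not check the labels: it had 3 and 3 counts in NC, 15 and 5 in NC-7d, 2 and 7 in KD-Nap1l2, and 7 and 13 in KD-Nap1l2-7d, with a log2 fold change of 0.64 ± 0.98 (SE) for knockdown before induction and -0.0012 ± 0.80 after it. A lower level in the libraries labelled KD-Nap1l2 was therefore not seen, and "knockdown" below follows the labels. The paper reports a successful knockdown in this cell line, assessed by western blot and qPCR. Whether the sequenced cells were those checked in this way is not stated. The 2 KD-Nap1l2 libraries lay farther apart than the pair of any other group, with a median difference between replicates of 0.259 on the log2 scale against 0.150 to 0.205 elsewhere, and values that 1 of them moved are also given without it. Of 12 mesenchymal markers 11 passed the filter on low counts (Nt5e, at 10 counts or fewer in every library, did not), and 4 of the 7 leukocyte markers were listed, with a summed level of 0.411 to 1.28 CPM, the count scaled to library size after TMM normalization. The 8 osteoblast markers summed to 1646 to 1831 CPM before induction and 2091 to 5412 after it, but Sp7, Alpl and Ibsp stayed at 10 counts or fewer in every library. Because the libraries are bulk RNA, fewer cells of a type and less RNA per cell cannot be told apart.

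Levels were compared between genes in FPKM, which corrects for transcript length. Sirt2 was the most abundant sirtuin, at 69.1 to 88.3 FPKM over the 8 libraries, and made up 59.2% of the FPKM of the 7 sirtuins on average. Nampt followed at 29.8 to 70.2 FPKM, and the ranges of these 2 genes overlapped over the 8 libraries and within NC-7d. Sirt6, a nuclear deacylase linked to DNA repair and glucose metabolism, ranged from 12.9 to 19.1 FPKM, and Sirt7, a nucleolar and chromatin deacetylase linked to ribosomal RNA transcription, from 9.28 to 19.9. The other 4 were lower and overlapped in rank: Sirt3, the main mitochondrial deacetylase, at 6.09 to 9.05 FPKM, Sirt4, a mitochondrial regulator of glutamate dehydrogenase, at 5.65 to 7.87, Sirt1 at 2.30 to 7.41, and Sirt5, a mitochondrial desuccinylase, at 2.83 to 4.81. Sirt5 had the lowest mean of the 8 in every group, and only in KD-Nap1l2 did its libraries overlap with those of the next gene, Sirt1. All 8 genes passed the filter on low counts that left 13470 genes for testing.

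**Figure D1:**
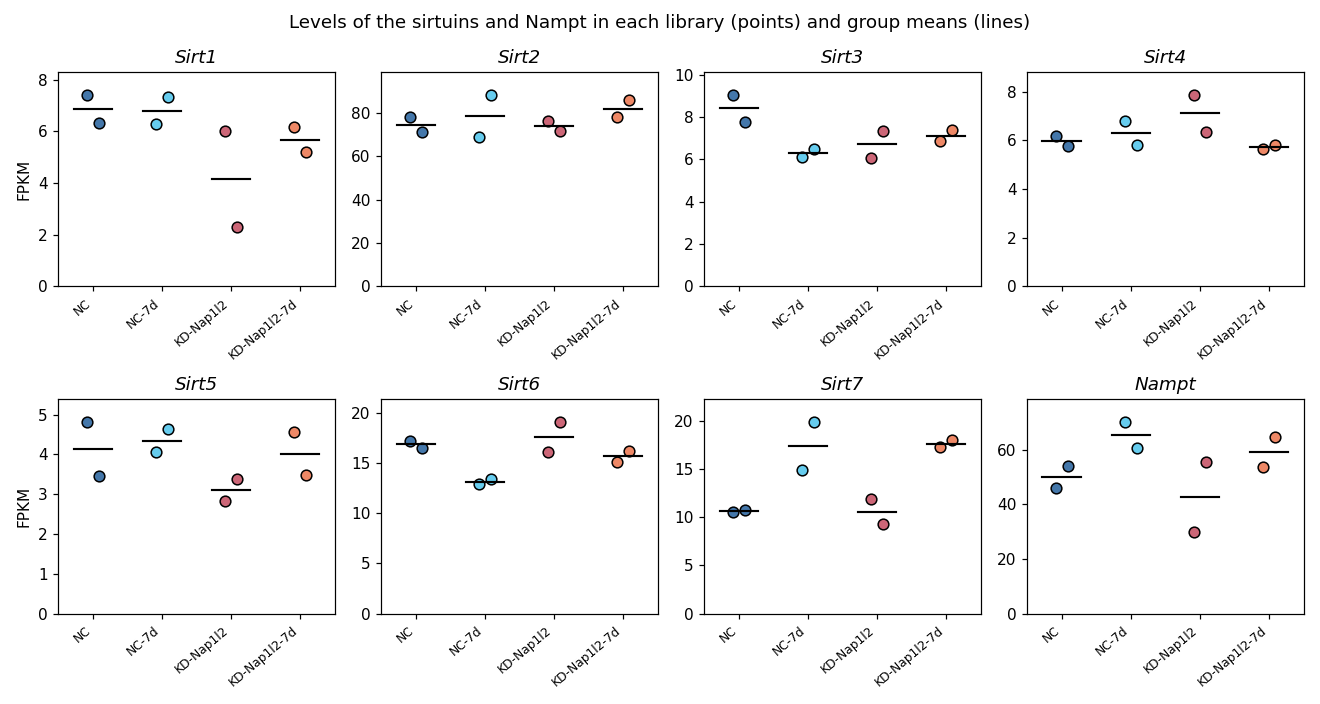
FPKM (y axis, from 0) of each of the 8 genes in the 4 groups (x axis); each point is 1 library and each line the mean of the 2. Sirt7 is the gene in which all 4 libraries after induction, 14.9 to 19.9 FPKM, lie above all 4 before it, 9.28 to 11.9, and in Sirt1 and Nampt 1 of the 2 KD-Nap1l2 libraries lies well below the rest, at 2.30 and 29.8 FPKM.

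Sirt7 was higher after osteogenic induction in both lines. Sirt7 measured 10.5 and 10.8 FPKM in NC, 14.9 and 19.9 in NC-7d, 11.9 and 9.28 in KD-Nap1l2, and 17.3 and 18.0 in KD-Nap1l2-7d. The libraries before and after induction thus did not overlap in either line. A rise without overlap held for 29.4% of all genes in control cells and 30.8% in knockdown cells. Group means went from 10.7 ± 0.163 to 17.4 ± 3.5 FPKM in control cells and from 10.6 ± 1.82 to 17.6 ± 0.509 in knockdown cells (SD, n = 2 each). Averaged over both lines, Sirt7 was 1.63-fold higher after induction, a log2 fold change of 0.71 ± 0.11 (SE, edgeR quasi-likelihood test over all genes, adjusted p = 0.00396). Over the alternatives and with each library left out, that adjusted p stayed between 5.2e-05 and 0.0250. Within single lines the call was less firm. In control cells the log2 fold change was 0.69 ± 0.16 (edgeR adjusted p = 0.0369) and in knockdown cells 0.73 ± 0.16 (edgeR adjusted p = 0.0232), but the adjusted p ran from 0.0175 to 0.213 in control cells, and from 0.00746 to 0.149 in knockdown cells, over the alternatives. The call in control cells ended without any 1 of NC replicate 1, NC replicate 2, NC-7d replicate 2 and the 2 KD-Nap1l2-7d libraries, at values of 0.50 to 0.69, and that in knockdown cells without KD-Nap1l2 replicate 2 or either KD-Nap1l2-7d library, at 0.63 to 0.77. With the replicate number as a block, the value in control cells was 0.69 (edgeR adjusted p = 0.0555).

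Sirt7 was the 1 member called of 8 in the averaged induction contrast, where 25.5% of all 13470 genes were called, 12.8% higher and 12.7% lower. It was also the 1 member called within control cells, against 8.21% of all genes, and within knockdown cells, against 14.2%. All 4 libraries after induction above all 4 before were seen in 1 of the 8 members and in 14.1% of all genes. An exact permutation test within lines gave Sirt7 a two-sided p of 0.0556 over the 36 arrangements, the smallest that this design allows. The members' median log2 fold change for induction was 0.17, against -0.01 over all genes tested.

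Sirt7 spans chr11:120618371-120625014 on the minus strand (GRCm38.p6), and in the GENCODE M21 annotation 124 of its 5148 exonic bases are also exonic in Mafg, the neighbouring gene on the same strand, which encodes a small Maf transcription factor. Mafg had 15.04 and 17.95 FPKM in NC, 28.9 and 26.7 in NC-7d, 18.5 and 18.2 in KD-Nap1l2, and 31.1 and 29.8 in KD-Nap1l2-7d, and it rose with induction by 0.77 ± 0.10 on the log2 scale (edgeR adjusted p = 0.00149). The part of reads from the shared bases in the Sirt7 value was not tested. Among the 3 Sirt7 transcripts, NM_153056.2 carried most of the gene's level. It measured 7.99 and 8.76 FPKM in NC and 12.5 and 16.5 in NC-7d, 9.04 and 4.96 in KD-Nap1l2 and 14.5 and 14.5 in KD-Nap1l2-7d. All 4 induced libraries were thus above all 4 others, a separation seen in 14.1% of all genes at the gene level. The log2 fold change was 0.92 ± 0.21. It was not called over all 38878 transcripts tested (edgeR adjusted p = 0.126), where 1.42% were called. Over 3 alternatives this adjusted p was 0.0802 to 0.236.

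Sirt6 and Sirt7 changed places in order. Sirt6 measured 17.2 and 16.5 FPKM in NC and 12.9 and 13.5 in NC-7d, 16.1 and 19.1 in KD-Nap1l2 and 15.1 and 16.2 in KD-Nap1l2-7d. The ratio of Sirt7 to Sirt6 within a library was therefore 0.487 to 0.735 in the 4 libraries before induction and 1.11 to 1.48 in the 4 after it. In each of the 4 groups the 2 genes' libraries did not overlap. Sirt6 itself was not called: its averaged log2 fold change for induction was -0.26 ± 0.11 (edgeR adjusted p = 0.122), and its libraries before and after induction overlapped in the knockdown cells. Without KD-Nap1l2 replicate 1, its value was -0.35 (edgeR adjusted p = 0.0274), and without replicate 2 it was -0.15 (edgeR adjusted p = 0.264).

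**Figure D2:**
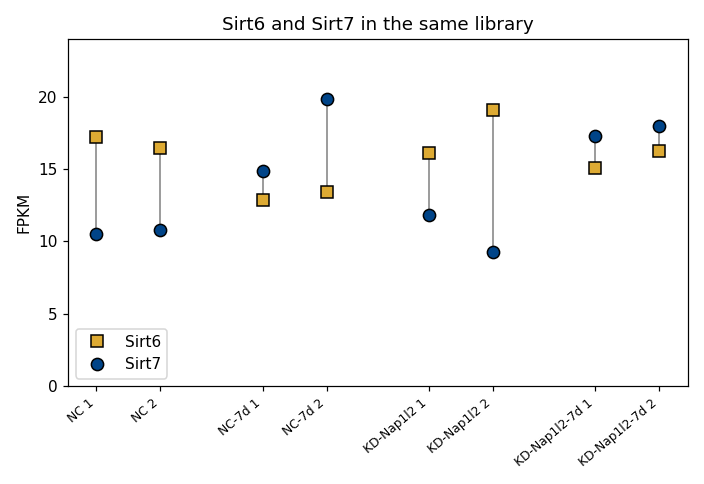
FPKM (y axis, from 0) of Sirt6 (squares) and Sirt7 (circles) in each of the 8 libraries (x axis), with a grey line joining the 2 genes of 1 library. Sirt6 is the higher in all 4 libraries before induction, and Sirt7 in all 4 after it.

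Nampt was higher after induction on average but was not called. It measured 46.0 and 54.2 FPKM in NC, 70.2 and 60.5 in NC-7d, 29.8 and 55.5 in KD-Nap1l2, and 53.6 and 64.6 in KD-Nap1l2-7d. The groups were apart in control cells, as were 29.4% of all genes in the same direction. They overlapped in knockdown cells, where KD-Nap1l2 replicate 1 had the lowest value of the 8. The averaged log2 fold change for induction was 0.42 ± 0.21 (edgeR adjusted p = 0.186), with an approximate 95% interval of -0.08 to 0.91. Leaving out KD-Nap1l2 replicate 2, which keeps the low library, gave 0.72 (edgeR adjusted p = 0.0108), and leaving out replicate 1 gave 0.21 (edgeR adjusted p = 0.397). For knockdown, the averaged log2 fold change of Nampt was -0.18 ± 0.21 (edgeR adjusted p = 0.764), and without KD-Nap1l2 replicate 1 it was 0.03. Nampt spans chr12:32820335-32853369 on the plus strand, and has 1 transcript in the table, so this value is not divided among isoforms.

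**Figure D3:**
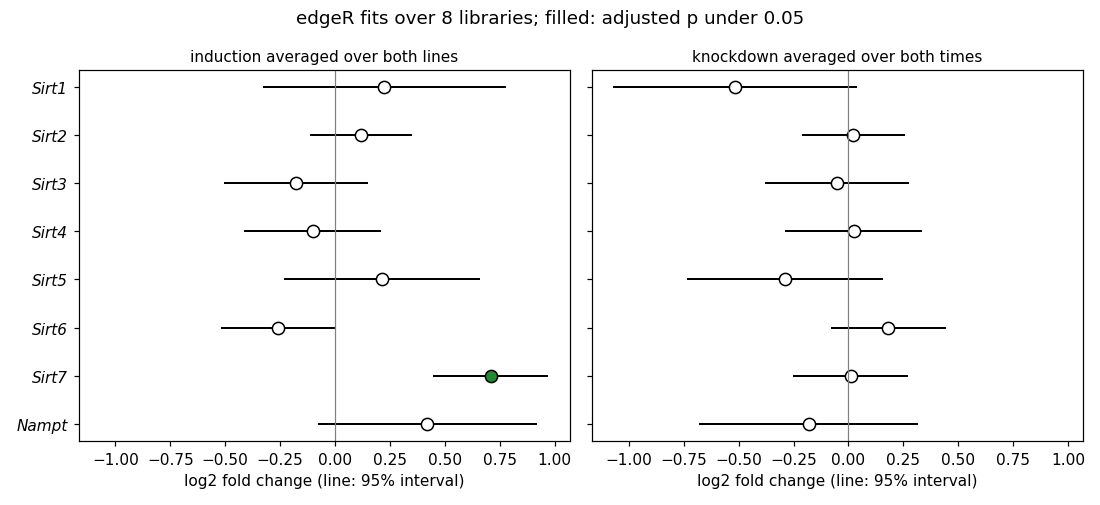
Log2 fold changes (x axis) of the 8 genes (y axis) for induction averaged over both lines and for knockdown averaged over both times, from the fit over all 8 libraries; lines are approximate 95% intervals. The filled point is Sirt7 at 0.71, and the interval of Sirt1 for knockdown runs from -1.07 to 0.03.

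With the knockdown, 0 of the 8 members were called before induction, where 0.0817% of all genes were, and 0 after it, where 0% were; averaged over both times, 0 members and 0.0594% of all genes were called. In these 3 contrasts 0 members had an unadjusted p under 0.05, against 1852, 1057 and 1981 of all 13470 genes. The DESeq2 Wald test called 453, 78 and 467 genes in them, and 0 members. The 8 members' median averaged log2 fold change was -0.02, against 0.0018 over all genes tested.

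Sirt1, the deacetylase that the study links to Nap1l2, was the member with the lowest value for knockdown. It had 541 and 485 counts in NC, 428 and 533 in NC-7d, 416 and 166 in KD-Nap1l2, and 434 and 354 in KD-Nap1l2-7d, or 29.2 and 24.8, 25.1 and 28, 22.3 and 9.47, and 23.8 and 20.3 CPM. All 4 knockdown libraries lay below all 4 control libraries, though the gap between the nearest 2 (23.8 and 24.8 CPM) was smaller than the SD of each group, 2.05 to 9.08 CPM. Such a separation held for 1 of the 8 members and for 2.01% of all genes. The averaged log2 fold change was -0.52 ± 0.24 (SE, edgeR adjusted p = 0.369), -0.76 ± 0.34 before induction (adjusted p = 0.373) and -0.27 ± 0.33 after it (adjusted p = 0.911). An exact permutation test within times gave a two-sided p of 0.0556, the smallest possible here.

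The size of the Sirt1 value rested on 1 library. The 2 KD-Nap1l2 libraries differed 2.36-fold in Sirt1, and 95.7% of all genes differed less between them. Nampt differed 2.04-fold between the same 2 libraries, in the opposite direction, with 93.2% of genes differing less. Without KD-Nap1l2 replicate 2, the low library for Sirt1, the averaged log2 fold change was -0.27 (edgeR adjusted p = 0.665). Without replicate 1, it was -0.89 (edgeR adjusted p = 0.0232), and Sirt1 was then also called before induction, at -1.51 (edgeR adjusted p = 0.0209), and for induction within knockdown cells, at 1.22 (edgeR adjusted p = 0.0122). With both libraries, the log2 fold change of Sirt1 for induction was -0.02 ± 0.33 in control cells and 0.47 ± 0.34 in knockdown cells, and neither was called.

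**Figure D4:**
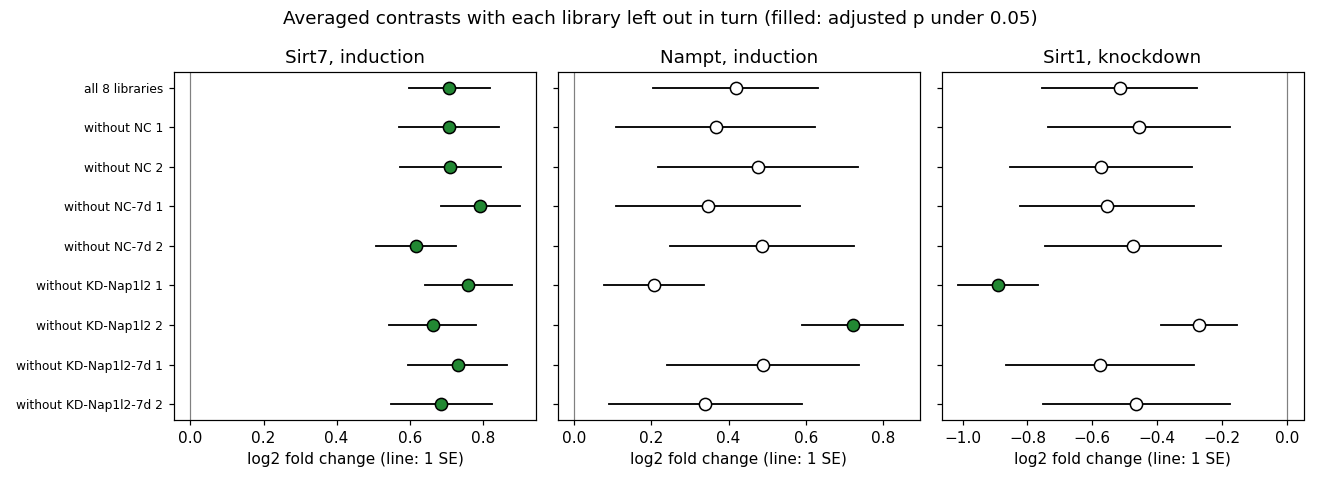
Averaged log2 fold changes (x axis, lines 1 SE) with all 8 libraries and with each left out in turn (y axis); filled points have an adjusted p under 0.05. Sirt7 stays between 0.62 and 0.79, while Nampt runs from 0.21 to 0.72 and Sirt1 from -0.89 to -0.27, each with both extremes at the 2 KD-Nap1l2 libraries.

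The Sirt1 gene lies at chr10:63319005-63339035 on the minus strand, and the table splits it into 2 transcripts that differ by 1 internal exon and in where they end, with 3905 and 3740 bases in the annotation. The antisense gene Gm16145 shares 65 of the 5331 exonic bases of Sirt1. NM_019812.3 has 9 exons and NM_001159589.2 has 8. Exon 2 of the longer form, at chr10:63336980-63337096 (GRCm38), is coding, has 117 bases, and so keeps the reading frame with or without its 39 codons. The sequences are shown because this exon is a coding difference between the 2 forms, which otherwise share their internal exons. Capitals mark exon 2, and lower case the 15 bases on either side, 5′ to 3′ on the coding strand.
NM_019812.3: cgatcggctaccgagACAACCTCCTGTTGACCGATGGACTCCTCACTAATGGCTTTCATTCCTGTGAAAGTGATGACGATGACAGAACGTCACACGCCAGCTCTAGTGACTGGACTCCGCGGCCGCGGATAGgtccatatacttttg
NM_001159589.2: cgatcggctaccgaggtccatatacttttg

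The form with exon 2 had lower estimates in the knockdown libraries at both times. NM_019812.3 had 364 and 485 estimated counts in NC and 364 and 430 in NC-7d, against 203 and 165 in KD-Nap1l2 and 265 and 99.3 in KD-Nap1l2-7d. The highest knockdown library was thus below the lowest control library, which was so for 1.45% of all 38878 transcripts tested. The averaged log2 fold change was -1.13 ± 0.32 (SE), 2.19-fold lower, and it did not pass over all transcripts (edgeR adjusted p = 0.622), where 0% were called. Before induction the value was -1.14 ± 0.46 and after it -1.11 ± 0.46. Over 3 alternatives the averaged value ran from -1.17 to -0.92 and its adjusted p from 0.409 to 0.885. The 2 forms divide the counts of 1 gene, so these values carry the same uncertain split as the other form. In KD-Nap1l2-7d replicate 2, for example, 99.3 counts went to this form and 255 to the other. For the gene as a whole the averaged log2 fold change was -0.52 ± 0.24.

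The form without exon 2 varied too much between replicates for a comparison. NM_001159589.2 had 177 and 0 estimated counts in NC, 63.8 and 103 in NC-7d, 213 and 1.16 in KD-Nap1l2, and 169 and 255 in KD-Nap1l2-7d, with a log2 fold change for knockdown of 0.82 ± 1.78. Its share of the Sirt1 FPKM was 0% to 33.3% in control libraries and 0.866% to 72.6% in knockdown libraries, and these ranges overlapped. An estimate of 0 allows up to 3 counts by counting error alone, which leaves out any reads assigned to the other form. The low Sirt1 total of KD-Nap1l2 replicate 2 came with almost no counts assigned to this form, while the control library with 0 counts for it had 485 for the other.

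**Figure D5:**
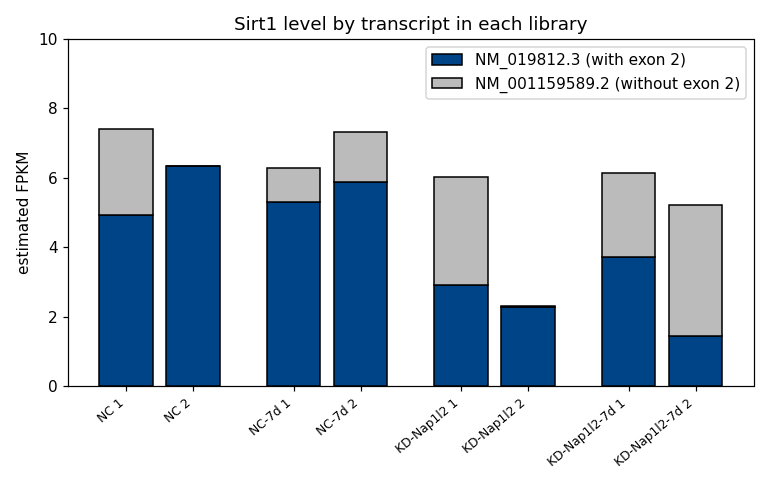
Estimated FPKM of Sirt1 (y axis, from 0) in each of the 8 libraries (x axis), stacked by transcript; dark bars are the form with exon 2 and grey bars the form without it. The dark part is 4.94 to 6.34 FPKM in the control libraries and 1.43 to 3.71 in the knockdown libraries, and the grey part is 0 or close to it in 1 library each of NC and KD-Nap1l2.

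The mitochondrial sirtuins and Sirt2 showed no called difference. Sirt3 had 9.05 and 7.77 FPKM in NC, 6.11 and 6.47 in NC-7d, 6.09 and 7.36 in KD-Nap1l2, and 6.87 and 7.38 in KD-Nap1l2-7d. The knockdown libraries were below the controls before induction and above them after it, without overlap at either time, a switch of direction seen in 5.60% of all genes. The log2 fold changes were -0.32 ± 0.20 and 0.22 ± 0.20, and their difference, 0.54 ± 0.28, was not called (edgeR adjusted p = 0.734). Without KD-Nap1l2 replicate 1 the value before induction was -0.13 and the difference 0.35, and without replicate 2 they were -0.53 and 0.74. Without NC replicate 1 the value before induction was -0.21. In this contrast 0% of all genes and 0 of 8 members were called, with 948 genes at an unadjusted p under 0.05 and 100 called by DESeq2. Exons of Psmd13 and Ric8a on the opposite strand share 342 and 418 of the 5973 exonic bases of Sirt3, and whether counting used the strand is not stated. Psmd13 and Ric8a had log2 fold changes of 0.12 and 0.31 for knockdown after induction, neither of them called.

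Sirt4 measured 6.19 and 5.75 FPKM in NC, 6.81 and 5.81 in NC-7d, 7.87 and 6.35 in KD-Nap1l2, and 5.65 and 5.79 in KD-Nap1l2-7d. Its averaged log2 fold changes were -0.10 ± 0.13 for induction and 0.02 ± 0.13 for knockdown. Sirt5 was 4.81 and 3.45 FPKM in NC and 2.83 and 3.38 in KD-Nap1l2, and 4.06 and 4.63, and 4.55 and 3.48, after induction. Its averaged values were 0.21 ± 0.19 for induction and -0.29 ± 0.19 for knockdown, with approximate 95% intervals of -0.23 to 0.65 and -0.73 to 0.15. Sirt2, a tubulin and histone deacetylase, had the narrowest interval: 0.12 for induction (-0.11 to 0.35) and 0.02 for knockdown (-0.21 to 0.25). Nfkbib, on the opposite strand, shares 42 of the 5035 exonic bases of Sirt2 and rose with induction by 0.48. For Sirt7 the knockdown value was 0.01 (-0.25 to 0.27). The design thus bounds the averaged knockdown difference of Sirt2 and Sirt7 more tightly than that of Sirt1, -1.07 to 0.03.

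Of the 38 member transcripts 31 passed the filter, and 15 had at least 1 count in every library. Over the 7 contrasts 0 of them were called. Sirt2 was read mainly as NM_001122765.1, at 49.4 to 66.9 FPKM, beside 4.11 to 16.7 for NM_001122766.1 and 4.54 to 10.7 for NM_022432.4. Sirt6 was read mainly as NM_181586.3, at 7.35 to 12.6 FPKM. All 9 Sirt4 transcripts were at 0 in at least 1 library, so the split of this gene among isoforms was not usable at this depth.

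In 6 lists of genes around NAD+, acetylation and the sirtuins, every call of the 7 contrasts lay in an induction contrast, as did nearly all calls over all genes. The list counts below are for the averaged induction contrast, where 25.5% of all genes were called, 12.8% higher and 12.7% lower. Of 17 genes of NAD+ synthesis and recycling other than Nampt, 11 were tested and 1 was called in the averaged induction contrast. This was Pnp, purine nucleoside phosphorylase, which can split nicotinamide riboside, and which went from 157 and 188 CPM in NC and 138 and 118 in KD-Nap1l2 to 459 and 374 in NC-7d and 378 and 370 in KD-Nap1l2-7d. Its averaged log2 fold change was 1.41 ± 0.12 (edgeR adjusted p = 0.000275). The list's median was 0.11. Nmnat2 and Slc12a8, which had the smallest unadjusted p of this list for knockdown, had values of 0.34 and 0.64 and were not called. Haao, an enzyme of de novo synthesis, had 1.16 for induction (edgeR adjusted p = 0.0502), at only 3.52 to 23.6 estimated counts per library. That Haao value averages 1.99 in control cells and 0.34 in knockdown cells.

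Of 18 genes that use or convert NAD+ other than sirtuins, 17 were tested, 3 rose, 1 fell and 13 were not called, with a median of 0.27; 4 of 17 is near the 25.5% called of all genes. Nnmt, which methylates nicotinamide and so takes it out of salvage, rose by 1.13 ± 0.16 (edgeR adjusted p = 0.00248), from 11.2 to 13.2 CPM over the 4 libraries before induction to 20.8 to 32.0 over the 4 after it. Nadk, the cytoplasmic NAD kinase, rose by 0.56 ± 0.09, and Nadk2, its mitochondrial counterpart, fell by 1.11 on the log2 scale (SE 0.16). Parp4 rose by 0.40.

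Among the 11 zinc-dependent histone deacetylases, the other classes of deacetylase, 0 rose and 3 fell with induction, and the median was -0.18. The shares called in this list and the next 3 lists, 3 of 11, 5 of 17, 4 of 14 and 2 of 10, stand beside 25.5% of all genes, so none is read as particular to a list. Hdac9 fell by 2.63 on the log2 scale (edgeR adjusted p = 0.00071), from 8.81 to 25.4 CPM before induction to 2.23 to 2.89 after it. Hdac2 fell by 0.58 and Hdac11 by 0.61. Of 17 histone acetyltransferases and their partners 4 rose and 1 fell, with a median of 0.18. Jade2 and Jade1, scaffold subunits of the Kat7 complex, rose by 1.75 ± 0.16 and 1.13 ± 0.11. Ep300 rose by 0.50 (edgeR adjusted p = 0.0224) and Brpf1 by 0.38 (edgeR adjusted p = 0.0378), while Ing4 fell by 0.28 (edgeR adjusted p = 0.0479). Ep300, Brpf1 and Ing4 were called in neither line alone. Of 14 binding regulators and substrates of SIRT1, 2 rose and 2 fell, with a median of -0.10. Foxo3 rose by 0.56 and Rps19bp1, which encodes an activator of SIRT1, by 0.41, but neither was called in a single line. For Foxo3 the value was 0.72 in control cells and 0.41 in knockdown cells, where its libraries overlapped. Usp22 fell by 0.44 and Ppargc1a, a coactivator of mitochondrial genes, by 1.21. This Ppargc1a value averages unlike lines. It was -2.01 ± 0.44 in control cells (edgeR adjusted p = 0.0326). In knockdown cells it was -0.41 ± 0.46 (edgeR adjusted p = 0.585), and the libraries overlapped. Of 13 mitochondrial sirtuin substrates 10 were tested, 2 rose and 0 fell, with a median of 0.04. These were Sod2, the mitochondrial superoxide dismutase, at 0.60 ± 0.09, and Acadl, a fatty acid dehydrogenase, at 0.69 ± 0.11.

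In the averaged knockdown contrast 0 genes of these 6 lists were called. Ppargc1a was among the lowest, with 18.3 and 12.5 CPM in NC and 5.36 and 2.22 in KD-Nap1l2, but 4.69 and 2.94 in NC-7d and 2.31 and 3.43 in KD-Nap1l2-7d. Its averaged log2 fold change was -1.21 ± 0.32 (edgeR adjusted p = 0.163), and over the alternatives the adjusted p ran from 0.0115 to 0.556. Parp4, Nadk and Kat2b had -0.31, 0.27 and -0.39. The averaged fall of Ppargc1a with induction was called with all libraries (edgeR adjusted p = 0.0283). It was not called without any 1 of 5 of them, NC replicate 1, NC-7d replicate 2, KD-Nap1l2 replicate 1 and both KD-Nap1l2-7d libraries. Its value there ran from -1.37 to -0.82.

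The summed level of adipocyte markers was higher after induction and that of mesenchymal markers lower, without overlap. Among single genes, such a separation held for 14.1% of all genes upward and 12.3% downward. A sum follows its most abundant genes, so it does not describe each marker of a list. The 5 adipocyte markers summed to 5.38 to 15.9 CPM in the 4 libraries before induction and 82.7 to 112 in the 4 after it, with Plin1, Lep and Cidec at 10 counts or fewer in every library, and the 12 mesenchymal markers to 18342 to 27397 CPM before and 10607 to 14825 after. The 4 endothelial markers summed to 3.99 to 6.44 CPM before induction and 1.32 to 2.46 after it, without overlap. Of these, 3 passed the filter on low counts, and Kdr was at 10 counts or fewer in every library. The 4 epithelial markers summed to 3.72 to 8.47 CPM before and 1.73 to 3.32 after, also without overlap. Only 1 of them passed the filter, with Epcam, Krt8 and Krt18 at 10 counts or fewer in every library. Neither low sum is read as a change of a cell type. The part of these marker levels in the rise of Sirt7 and in the list genes called with induction was not tested.

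Over 11279 other genes, each averaging 50 or more normalized counts, the profiles nearest to Sirt7 over the 8 libraries were those of Flot1, Rexo2 and Nqo2, at root mean square distances of 0.0669, 0.0755 and 0.0802 on the mean-centred log2 CPM scale. Flot1 had 60.1 and 57.3 CPM in NC, 78.8 and 99.98 in NC-7d, 54.1 and 50.8 in KD-Nap1l2, and 84.4 and 92.1 in KD-Nap1l2-7d. For Sirt1 the nearest were Ccnj, Uros and Slc25a35, at 0.145, 0.159 and 0.181, which shared its low value in KD-Nap1l2 replicate 2. Uros, for example, had 9.30 CPM there and 15.6 to 19.6 in the other 7 libraries. For Nampt the nearest were Mapk1ip1, Spg21 and Anxa4, at 0.146, 0.150 and 0.165, which shared its low value in KD-Nap1l2 replicate 1, where Spg21 had 55.3 CPM against 75.6 to 112 in the others. The nearest profiles of Sirt1 and Nampt thus followed 1 library each.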

How the data were processed

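RNA was sequenced in 8 libraries from BGI protocols, and groups were taken from the labels. The authors deposited estimated counts per gene and per transcript, without normalization, and FPKM values scaled by the authors to length and library depth. The column headers name only an expression value, and that it is FPKM was inferred from its ratio to count, length and depth. The submitters' processing notes name RSEM, Bowtie2, BWA and the GRCm38.p6 build, with no versions or roles, and whether counting used the strand is not stated. The authors' own deposited tables of comparisons hold log2 fold changes, p-values and q-values, and were not used.

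Estimated counts were rounded to whole numbers, filtered with filterByExpr and scaled by TMM. One edgeR 4.0.16 model (R 4.3.3) held the 8 libraries, with the quasi-likelihood test. Adjusted p-values (Benjamini-Hochberg) under 0.05 over all genes or transcripts tested were calls. Standard errors were derived from the F statistic as |log2 fold change|/√F, and a 95% interval uses the median total degrees of freedom, so it is approximate. CPM values are counts scaled to library size after TMM. The contrasts were induction in each line and averaged, knockdown at each time and averaged, and the difference between the knockdown contrasts, 7 in all. Fits were tested on simulated data. Alternatives were DESeq2 1.42.0, limma 3.58.1 on log2(FPKM + 1) and log2(FPKM + 0.1), RLE scaling, other filters, the replicate number as a block, a fit of only the libraries compared, and each library left out, when a lone library is assumed to vary like the other groups. Intervals rest on the spread between libraries, and the floor of 3 counts covers counting error only.

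The named genes are the 8 members, Nap1l2, the list genes called in a contrast, the 2 genes of each list with the smallest unadjusted p in each averaged contrast (not all are printed), and the 3 nearest profiles of Sirt1, Nampt and the called Sirt7. Genes whose exons overlap a member were added after their values could be seen. The members and the gene lists were chosen with earlier results of these data known. Exon positions and sequence come from GENCODE M21 on GRCm38 and gene positions from RefSeq. Figures were drawn with matplotlib 3.10.9.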

Additional observations from a re-analysis of the deposited data

Results flagged for a closer look

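Sirt3 stood out because its 2 knockdown libraries lay below the controls before induction and above them after it, with no overlap at either time. The difference between the 2 knockdown contrasts was 0.54 on the log2 scale (SE 0.28), with an unadjusted edgeR p of 0.0920 and an adjusted p of 0.734, so it was not called over all genes. With each library left out in turn it ran from 0.35 to 0.74.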

How the results depend on the processing

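Of 613 recomputed single values, 571 kept their direction and their side of the threshold, 17 lost a call, 9 gained one and 16 changed sign; the sign changes came with a library left out. The count of genes called for knockdown depended on the tool and the filter. Before induction, after it, averaged and for the difference between both, DESeq2 called 453, 78, 467 and 100 genes. Without a filter on low counts 160, 131 and 1 genes were called before induction, averaged and for the difference, with at least 10 counts in every library 4 and 0 before induction and averaged, with limma on log2(FPKM + 1) 33 and 22, and on log2(FPKM + 0.1) 18 before induction. The fit of only the libraries compared called 0 before induction. Within control cells 0 members were called for induction under the replicate block, both limma fits and the fit restricted to the compared libraries, where Sirt7 had values of 0.64 to 0.69. The cause was not tested.

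Deviations of same-numbered libraries correlated at -0.06 to 0.10 over 6 pairs of groups, so the numbers were not taken as pairs. With the replicate block 4 and 2 genes were called for knockdown before induction and averaged.

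With each library left out in turn, the genes called ran from 122 to 1490 for induction in control cells, 305 to 2218 in knockdown cells, 1684 to 3918 averaged, 0 to 562 for knockdown before induction, 0 to 1 after it, 0 to 570 averaged and 0 to 19 for the difference. Members called ran from 0 to 1 for induction in control cells, 0 to 2 in knockdown cells, 1 to 3 averaged, and 0 to 1 for knockdown before induction and averaged. The highest knockdown counts came without KD-Nap1l2 replicate 1. For knockdown averaged over both times, values ran from -0.046 to 0.098 for Sirt2, -0.16 to 0.041 for Sirt3, -0.054 to 0.11 for Sirt4, -0.073 to 0.10 for Sirt7 and -0.48 to 0.032 for Nampt, and Nampt before induction from -0.82 to 0.21. For induction, Sirt1 ran from -0.020 to 0.60 averaged and -0.015 to 1.22 in knockdown cells. Ratios of members' mean levels after and before induction moved by less than the spread between replicates with summed transcript FPKM or CPM. For Sirt1, whose KD-Nap1l2 libraries differed 2.36-fold, the averaged knockdown difference could not be told from the spread.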
